A study of Sus scrofa with 4 samples.

Results

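GATA6, FOXA2, PDGFRA, APOA1 and APOE, a group of primitive endoderm regulators and apolipoproteins, were followed in pools of pig (Sus scrofa) blastocysts. They were chosen by gene symbol in the platform annotation of a porcine oligonucleotide array (EMPV1), which gave 6 probes of 43794, for 5 genes of 10022 with a symbol. APOE had 2 probes and each other gene had 1. The series set blastocysts of a high NEFA group against blastocysts of a control group, the exposure having been given to the oocytes. NEFA are non-esterified fatty acids, which enter the blood when body fat is mobilised. Each of 4 two-colour arrays carried 1 high NEFA pool and 1 control pool, and each pool held 10 blastocysts, collected on days 7 and 8. The high NEFA pool was labelled with Cy3 on replicates 1 and 2 and with Cy5 on replicates 3 and 4, per the labels. The values did not allow a check of this dye swap, and every direction below rests on it. The series title adds a coculture with a monolayer of GCs, which it does not spell out, and the labels assign it to neither kind of pool in particular. The dose, the fatty acids used and the origin of the oocytes are not given in the sources used here. The arrays are labelled biological replicates. No label says that the pools came from separate animals or collections, so the tests measure the spread between these pools only. The molecule is labelled total RNA, while the protocols describe methylation-sensitive digestion and labelling of genomic DNA. Which of these was hybridised was not tested, and the intensities below are transcript levels only if it was RNA.

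The primitive endoderm, or hypoblast, is the layer of the inner cell mass that faces the blastocyst cavity and later lines the yolk sac. In the mouse, fibroblast growth factor signalling drives inner cell mass cells to keep GATA6 and give up NANOG, and the cells that keep GATA6 also carry the receptor PDGFRA. FOXA2 acts later, in the visceral endoderm. That tissue resembles liver in secreting apolipoproteins, the protein part of the particles that carry lipid to the embryo. A pool of whole blastocysts holds few cells of this layer among many trophectoderm cells, and in such material fewer cells of a type cannot be told apart from less RNA per cell.

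By array, 57% to 60.3% of probes were above background in the Cy3 channel, and 49% to 51.1% in the Cy5 channel. A probe counted as above background where its spot lay over a limit set, for each array and dye, at 2 SD over the mean of the negative controls. In scanner units the Cy3 limit ran from 310 to 369 and the Cy5 limit from 205 to 247. All 6 probes passed it in all 8 channels, as did 13842 of 43794 probes on the array. At 3 SD, GATA6, APOA1 and the APOE probe EMPV1_43584 still passed in 8 of 8 channels, the APOE probe EMPV1_35734 in 7, and FOXA2 and PDGFRA in 5. Median local background around the 6 spots was 29 to 69 units in every channel. Each ratio is the log2 difference of the high NEFA from the control pool on 1 array after loess normalisation, so positive values are higher in high NEFA pools. Before the ratios were turned by dye, log2 of Cy5 over Cy3 correlated positively between all arrays. After turning, r was 0.46 and 0.615 between arrays of 1 dye orientation and -0.515 to -0.5 between arrays of opposite orientation, over tested probes. Under the labelled swap this is a difference that follows the dye, and the limma fit carried a term for it. Arrays with no swap would give the same correlations, and the values cannot tell these apart. Without the swap, the ratios of 2 of the 4 arrays would turn in sign.

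None of the 5 genes differed between high NEFA and control blastocysts at the threshold. In the limma fit, 0 of 24505 tested probes (0%) had an adjusted p under 0.05, the 6 probes among them. Before adjustment, 1570 probes (6.41%) had a p under 0.05, 3.17% higher and 3.24% lower in high NEFA, and 0 of the 6 were among them. The fitted ratios ran from -0.35 for APOA1 to 0.22 for GATA6. FOXA2 was the only one of the 5 genes with the same direction on all 4 arrays, where it was lower in the high NEFA pools. Of all tested probes measured on every array, 7.84% kept 1 direction, with 4.07% lower and 3.77% higher on all 4 arrays.

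**Figure D1:**
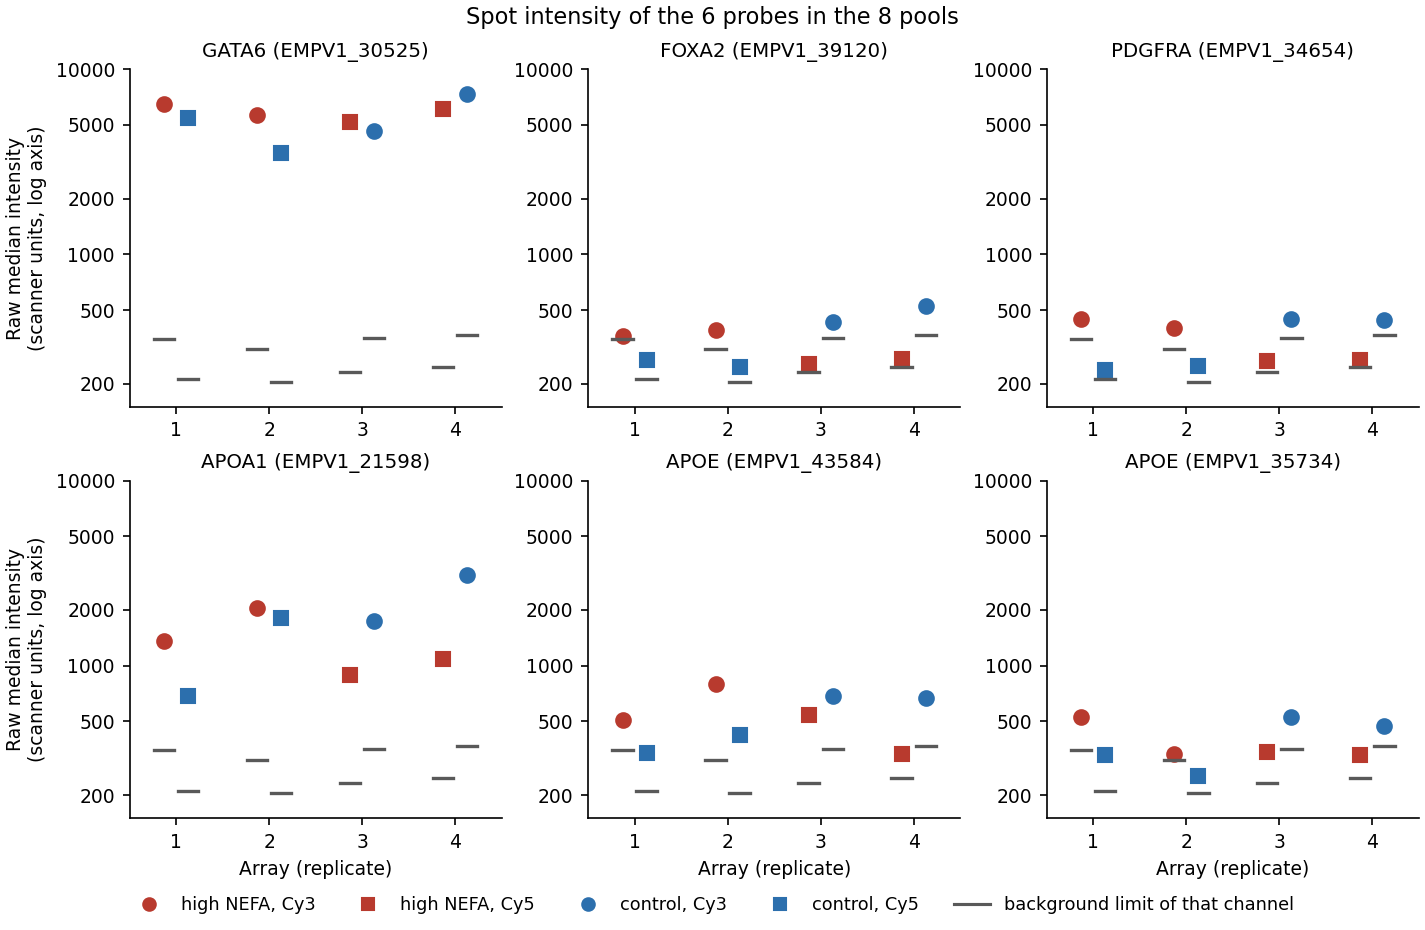
Raw median spot intensity (scanner units, log axis) of the 6 probes on arrays 1 to 4, with high NEFA pools in red, control pools in blue, Cy3 as circles, Cy5 as squares, and the background limit of each channel as a grey line. GATA6 lay 13.1 to 25.8 times over its limit, while FOXA2 and PDGFRA lay 1.03 to 1.43 and 1.09 to 1.28 times over it.

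GATA6, the zinc finger factor that sets the primitive endoderm programme, was measured far above background. In the high NEFA pools its raw median intensity was 6496, 5691, 5178 and 6130 (replicates 1 to 4), against 5449, 3530, 4616 and 7365 for the controls. Normalised log2 intensity, scaled between arrays, was 12.47, 12.41, 12.50 and 12.64 in the high NEFA pools and 12.57, 12.15, 11.88 and 12.55 in the control pools. The 4 high NEFA pools lay close together (12.51 ± 0.10, SD, n = 4). The control pools were wider apart (12.29 ± 0.33, SD, n = 4), with replicates 2 and 3 below all high NEFA pools and replicates 1 and 4 among them. The array ratios were -0.10, 0.26, 0.62 and 0.09, higher in high NEFA on 3 of 4 arrays. The fitted ratio was 0.22 ± 0.14 (SE), with a 95% interval of -0.10 to 0.54, or 0.935-fold to 1.45-fold, and an adjusted p of 0.796 in limma. It was 0.09 without replicate 3, whose control pool was the lowest of the 8, 0.13 without replicate 2 and 0.35 without replicate 4. With mean in place of median pixel intensity it was 0.08 ± 0.14 (SE), from array ratios of -0.34, 0.34, 0.30 and 0.03.

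FOXA2, a forkhead factor of endoderm that opens chromatin for other factors, was close to the background limit. Its raw intensity was 361, 392, 257 and 272 in the high NEFA pools, and 270, 246, 429 and 529 in the control pools. The lowest margin was in the Cy3 high NEFA pool of replicate 1, where 361 stood against a limit of 349. Normalised log2 intensity was 7.69, 8.09, 8.02 and 8.05 in the high NEFA pools, and 8.23, 8.13, 8.10 and 8.39 in the control pools. The lowest control pool lay above the highest high NEFA pool by 0.0097, so the groups did not overlap, as for 1.13% of tested probes. This gap was -0.0805 without scaling between arrays, -0.0506 without background correction and -0.0643 with 1 background per array and channel. It was -0.0447 with mean pixel intensity and -0.0103 with median centring, and the groups overlapped in all of these. The gap stayed just above 0 with plain subtraction (0.0021) and with an offset of 16 (0.0097). The array ratios were -0.54, -0.05, -0.07 and -0.34. The fitted ratio was -0.25 ± 0.14 (SE), with a 95% interval of -0.56 to 0.06 and an adjusted p of 0.770 in limma. It was -0.13 without replicate 1. With mean pixel intensity it was -0.10 ± 0.04 (SE, from that fit's own moderated variance), with array ratios of -0.09, 0.03, -0.13 and -0.20.

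**Figure D2:**
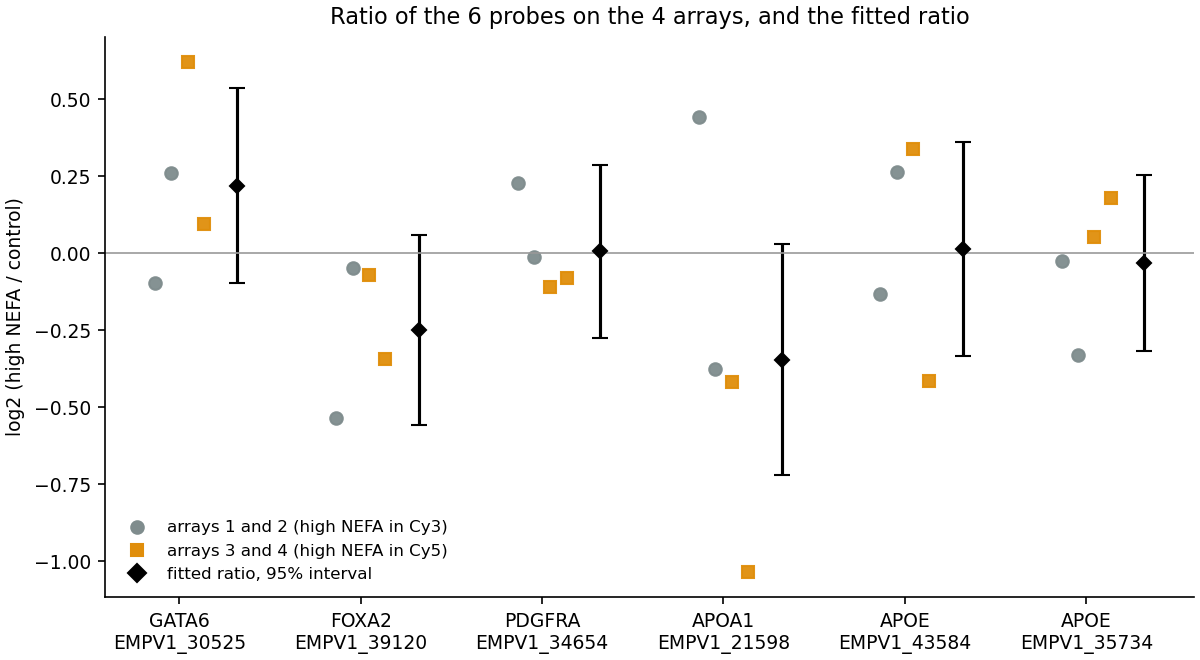
Log2 ratio of high NEFA over control for each probe on arrays 1 and 2 (grey circles, high NEFA in Cy3) and 3 and 4 (orange squares, high NEFA in Cy5), with the fitted ratio and its 95% interval (black diamonds). Every interval crosses 0, and the 4 FOXA2 values, from -0.54 to -0.05, are the only set that lies on 1 side of it.

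PDGFRA, the receptor for platelet-derived growth factors that marks primitive endoderm cells in the mouse, varied least of the 5 genes. Its raw intensity was 447, 398, 264 and 270 in the high NEFA pools, and 237, 249, 445 and 444 in the control pools, so that the order followed the dye. Normalised log2 intensity ran from 8.05 to 8.29 in the high NEFA pools and from 8.06 to 8.29 in the control pools, and the groups overlapped over nearly their whole range. From the lowest to the highest of the 8 pools the level changed 1.18-fold. The array ratios were 0.23, -0.01, -0.11 and -0.08. The fitted ratio was 0.01 ± 0.13 (SE), with a 95% interval of -0.27 to 0.29, or 0.827-fold to 1.22-fold, and an adjusted p of 0.995 in limma. At 1.09 to 1.28 times the background limit, the interval covers the measured signal, which includes what remains of the background.

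APOA1, the main protein of high-density lipoprotein, differed most of the 5 genes from pool to pool. Its raw intensity was 1358, 2038, 893 and 1091 in the high NEFA pools, and 689, 1810, 1746 and 3096 in the control pools. All values were 3.26 to 8.83 times the background limit. Normalised log2 intensity was 10.07, 10.87, 10.03 and 10.12 in the high NEFA pools, and 9.63, 11.25, 10.45 and 11.16 in the control pools. The control pool of replicate 1 was the lowest of the 8 and that of replicate 2 the highest, a 3.07-fold range within the control group. The means were 10.28 ± 0.40 in high NEFA and 10.62 ± 0.75 in control pools (SD, n = 4 each), and the groups overlapped. On replicate 1 the ratio was 0.44, and on replicates 2 to 4 it was -0.37, -0.42 and -1.03. The fitted ratio was -0.35 ± 0.17 (SE), with a 95% interval of -0.72 to 0.03, or 0.606-fold to 1.02-fold, and an adjusted p of 0.766 in limma. The mean ratio was 0.03 over the arrays with high NEFA in Cy3 and -0.73 over those with high NEFA in Cy5. The fitted ratio was -0.55 without replicate 1 (adjusted p 0.245), -0.14 without replicate 2 and -0.19 without replicate 4. With mean pixel intensity it was -0.44 ± 0.14 (SE, adjusted p 0.517), and the 95% interval of -0.833 to -0.049 left out 0 before adjustment.

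APOE, the ligand through which lipoprotein remnants bind the low-density lipoprotein receptor, was read by 2 probes that gave different patterns over the arrays. For EMPV1_43584 the raw intensity was 508, 796, 542 and 334 in the high NEFA pools, and 338, 421, 682 and 666 in the control pools. For EMPV1_35734 it was 528, 334, 342 and 329 in the high NEFA pools, and 331, 252, 529 and 470 in the control pools. The high NEFA pool of replicate 2 was thus the highest of the 8 for the first probe, at 9.38 in normalised log2 intensity, and the lowest of the 8 for the second, at 7.90. The array ratios were -0.13, 0.26, 0.34 and -0.41 for EMPV1_43584, and -0.03, -0.33, 0.05 and 0.18 for EMPV1_35734, with opposite signs on replicates 2 and 4. The fitted ratios were 0.01 ± 0.16 and -0.03 ± 0.13 (SE), with 95% intervals of -0.33 to 0.36 and -0.32 to 0.25 and adjusted p of 0.990 and 0.971 in limma. The mean of both probes had -0.01. With mean pixel intensity the fitted ratios were 0.17 ± 0.09 and 0.04 ± 0.03 (SE). Both probes were then above 0 on replicate 2 (0.3292 and 0.0103) and on replicate 4 (0.0077 and 0.0154). On replicate 1 they had opposite signs (-0.0083 and 0.0459).

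**Figure D3:**
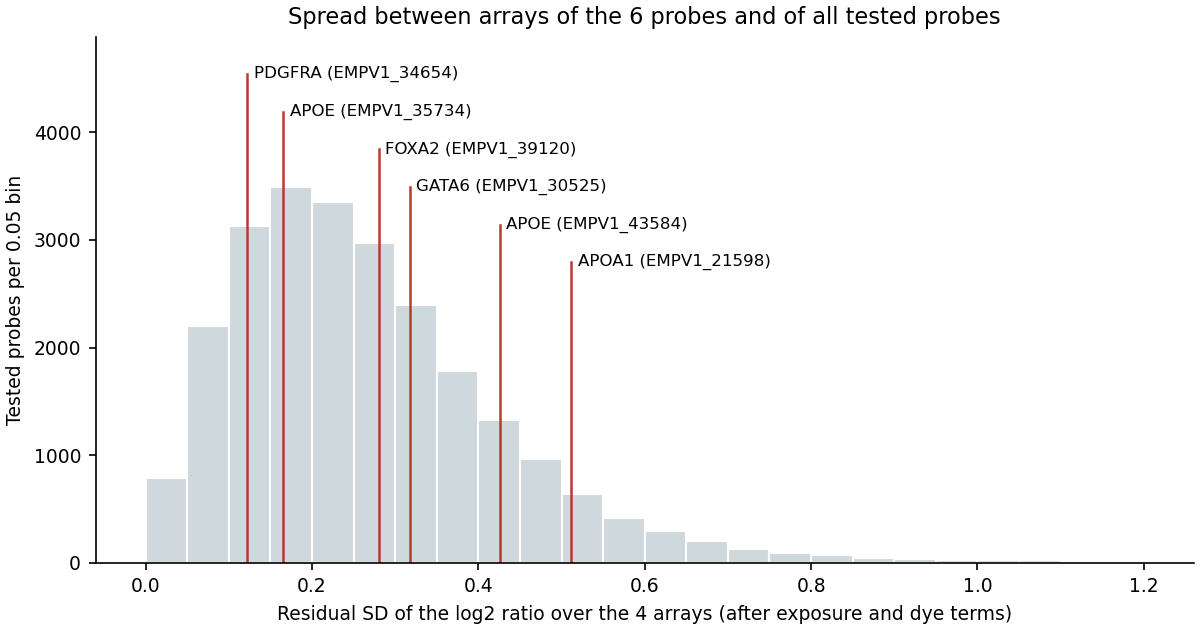
Histogram of the residual SD of the log2 ratio over the 4 arrays, after the exposure and dye terms, for all tested probes in bins of 0.05, with the 6 probes as red lines. PDGFRA lies at 0.12, on the narrow side of the median of 0.24, and APOA1 at 0.51, in the upper tail.

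The spread between arrays differed from gene to gene. The residual SD of the log2 ratio was 0.12 for PDGFRA, 0.17 and 0.43 for the 2 APOE probes, 0.28 for FOXA2, 0.32 for GATA6 and 0.51 for APOA1, against a median of 0.24 over all tested probes. APOA1 lay above 92.0% of tested probes in this measure, the APOE probe EMPV1_43584 above 85.0%, and PDGFRA above 17.3%. In the size of the fitted ratio, APOA1 lay above 95.6%, FOXA2 above 86.5% and GATA6 above 81.4% of tested probes, while PDGFRA lay above 2.8%. The dye term, which is the mean log2 of Cy5 over Cy3, was 0.14 for GATA6, 0.042 for FOXA2, -0.10 for PDGFRA, -0.38 for APOA1, and -0.052 and 0.15 for the APOE probes EMPV1_43584 and EMPV1_35734. It passed for 0 of the 6 probes (adjusted p 0.129 for APOA1 and 0.426 to 0.847 for the others in limma), where it passed for 22.8% of tested probes. In 1 of the 6, the APOE probe EMPV1_35734, both arrays of 1 dye orientation had the opposite sign to both arrays of the other, a pattern of 41.7% of tested probes. By array, 2, 2, 3 and 2 of the 6 probes were higher in high NEFA on replicates 1 to 4, beside 46.3%, 46.5%, 53.3% and 53.6% of tested probes.

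No listed gene of the primitive endoderm programme passed the adjusted threshold. Of 32 genes listed, 21 were on the array and 14 had a tested probe, 9 of them higher and 5 lower in high NEFA, with 0 past the adjusted threshold. Their median ratio was 0.04, beside -0.01 over all tested probes, and it was 0.08 over the 9 genes other than the 5 described above. The median was -0.0073 with mean pixel intensity, 0.0095 without background correction and 0.0087 with 1 background per array and channel. It was -0.0014 with the mean of a gene's probes, and -0.082, 0.098 and -0.073 without replicates 1, 2 and 4. GATA4 and SOX17, partners of GATA6 in this lineage, were not analysed here. The laminin chain LAMB1, part of the basement membrane that this layer lays down, had -0.35 ± 0.15 (SE), with array ratios of 0.25, -0.40, -0.87 and -0.38. NID2, a nidogen that links laminin to collagen IV, had -0.26 ± 0.13 (SE), and -0.26 at its other probe. DAB2, an endocytic adaptor of extraembryonic endoderm, had 0.28 ± 0.12 (SE), and -0.12 ± 0.15 at its other probe. The adjusted p was 0.766 for LAMB1, NID2 and DAB2 in limma.

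Among genes of lipoprotein assembly, uptake and remodelling, 20 of 30 were on the array and 14 were tested. Of these, 5 were higher and 9 lower in high NEFA, with a median of -0.13 and 0 past the adjusted threshold. The median was -0.02 with mean pixel intensity, -0.11 without background correction and -0.12 with 1 background per array and channel. It was -0.14 with the mean of a gene's probes, and it ran from -0.17 to -0.12 with 1 array left out. APOM, a lipocalin-type apolipoprotein that carries sphingosine 1-phosphate, was lower on all 4 arrays, with ratios of -0.51, -0.42, -0.16 and -0.55 and a fitted ratio of -0.41 ± 0.13 (SE, adjusted p 0.766). It was above background in 4 of 8 channels. APOH, a phospholipid-binding plasma protein, had -0.32 ± 0.13 (SE), also with 4 of 8 channels above background. APOC3, an inhibitor of triglyceride clearance, had -0.25 ± 0.13 (SE), but its array ratios of 0.54, 0.91, -1.38 and -1.07 changed sign with the dye orientation. APOA2, a second protein of high-density lipoprotein, had 0.07 ± 0.17 (SE) and array ratios of 0.54, -0.19, -0.40 and 0.35, which matched APOA1 in sign on replicates 1 to 3 and not on replicate 4.

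Upstream and downstream of PDGFRA, 19 of 28 genes of platelet-derived and fibroblast growth factor signalling were on the array and 9 were tested. Of these, 3 were higher and 6 were lower, and 0 had a p under 0.05 with or without adjustment. The median ratio was -0.014, which was 0.0058 with mean pixel intensity, and it ran from -0.094 to 0.0033 with 1 array left out. The ligand PDGFA had -0.16 ± 0.13 (SE) at the brightest of its 4 tested probes. The phosphoinositide 3-kinase regulatory subunit PIK3R1 had 0.23 ± 0.13, the kinase MAP2K1 -0.22 ± 0.13 and the phospholipase PLCG1 -0.12 ± 0.12 (SE). Their array ratios changed sign with the dye orientation in all 3, a pattern of 41.7% of tested probes. The ligand FGF4 and the receptor FGFR2 were each above background in 1 of 8 channels and the receptor FGFR1 in 3, and none was tested.

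**Figure D4:**
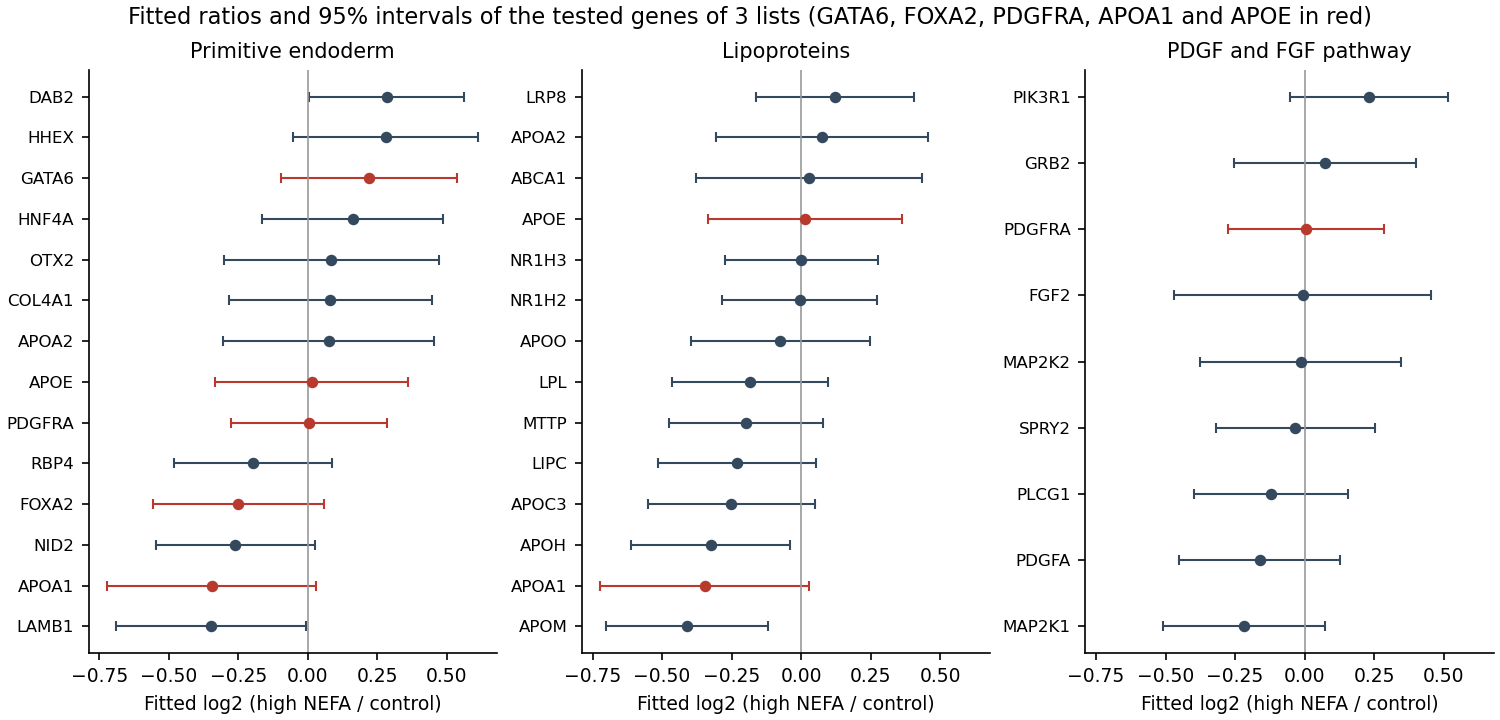
Fitted log2 ratio of high NEFA over control with its 95% interval for the tested genes of the primitive endoderm, lipoprotein, and growth factor lists, sorted by ratio, with the 5 genes described here in red. The intervals of LAMB1, DAB2, APOM and APOH leave out 0 before adjustment, and none passes after it. That is 2 of 14, 2 of 14 and 0 of 9 tested genes by list, beside 6.41% of all tested probes.

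The genes whose 4 array ratios came closest to each of the 5 were looked up by mean absolute difference, among 3861 other genes above background in all channels. For GATA6 these were PROS1, the anticoagulant protein S, at 0.03 and FAM110B at 0.05. For FOXA2 they were ENOPH1, an enzyme of methionine salvage, at 0.05 and the glycolytic enzyme TPI1 at 0.05. PDGFRA had LHFPL1 at 0.03 and the proteasome assembly factor PSMG3 at 0.04, and APOE had TMEM106C at 0.04 and FBXL8 at 0.06. Within 0.1 of the ratios lay 66 genes for PDGFRA, 16 for GATA6, 10 each for FOXA2 and APOE, and 0 for APOA1, whose nearest were MEGF11 at 0.13 and PCNP at 0.14. With 4 values a gene, such closeness is a description of these arrays only.

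Markers of the other cells in the pools were read beside these genes. For trophectoderm, 7 of 10 genes with a probe passed the background limit in all 8 channels, TEAD4 and TFAP2C among them. For epiblast 2 of 6 did so, LIN28A and UTF1, while PRDM14 was above background in none. NANOG, POU5F1 and CDX2 were not analysed here. For granulosa cells 2 of 10 did so, AMH and FST, while CYP17A1 and SERPINE2 were above background in none. For oocyte genes 4 of 13 did so. Over the whole array 13842 of 43794 probes did so, counted by probe and not by gene. Summed over the tested genes of each list, normalised intensity was 47420 to 66100 in high NEFA and 44740 to 59920 in control pools for trophectoderm, 1316 to 1831 and 1039 to 1501 for epiblast, and 2439 to 4521 and 2338 to 3538 for granulosa genes. The ranges overlapped for each list. Within arrays, the log2 ratio of the epiblast sums was 0.29, 0.29, 0.46 and 0.067, and that of the trophectoderm sums 0.56, 0.12, 0.0071 and 0.013. Both were above 0 on 4 of 4 arrays, the trophectoderm sums barely so on replicates 3 and 4. Of single tested probes, 3.77% were higher on all 4 arrays. A sum mostly follows its brightest probes, and of 8 tested trophectoderm genes 6 were higher and 2 lower by fitted ratio. For granulosa genes the log2 ratio of the sums was 0.62, 0.33, -0.018 and -0.36. LIN28A, an RNA-binding protein of pluripotent cells, had array ratios of 0.30, 0.34, 0.71 and 0.25 and a fitted ratio of 0.40 ± 0.13 (SE). UTF1, a chromatin factor of the same cells, had 0.499, 0.336, 0.475 and 0.113, at 0.36 ± 0.13 (SE), and neither passed after adjustment (adjusted p 0.766 for both in limma). The other tested epiblast genes, SOX2 (0.15 ± 0.15, SE) and KLF4 (-0.015 ± 0.13, SE), had array ratios of both signs. They were above background in 4 and 5 of 8 channels. The part of these markers in the ratios of the 5 genes was not tested.

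**Figure D5:**
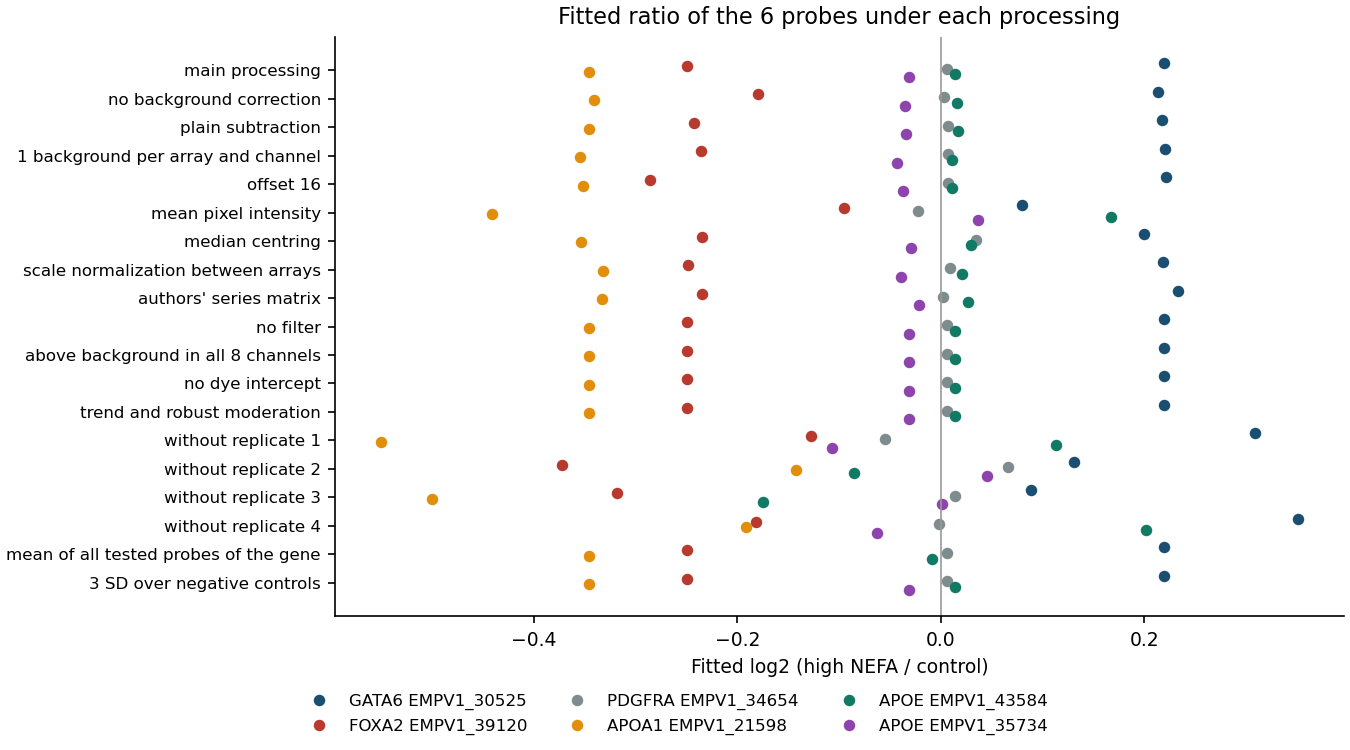
Fitted log2 ratio of the 6 probes (colours) under the main processing and 18 alternatives (vertical axis). GATA6 stays above 0 and FOXA2 and APOA1 below it in every setting, while PDGFRA and the APOE probes lie on both sides of 0. Changes of filter, dye term or variance moderation leave the ratios as in the main processing and are no check of direction.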

How the data were processed

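Per the file headers, the deposited scanner files give raw intensity for spots and for their local background, as median and as mean over pixels, in the Cy3 and Cy5 channels. Of 45220 spots an array, 17 to 60 were marked and dropped from the fit. The deposited value table of the authors holds log2 ratios, made with limma per the submitters' processing notes. Its column medians were 0.0022, 0.0083, 0.0088 and 0.016, and it followed log2 of Cy5 over Cy3 here (r of 0.802 to 0.814). Its settings stay unknown, and it served as an alternative only.

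From median intensities, background was corrected with normexp (offset 50) and arrays were normalised by loess, with control spots at weight 0, in limma 3.58.1 (R 4.3.3). Levels were also scaled between arrays by Aquantile. Probes that passed the background limit in 4 or more of 8 channels (24505) were fitted with an exposure and a dye term and moderated variances (2 residual plus 7.84 prior degrees of freedom). Calls used an adjusted p under 0.05 (Benjamini-Hochberg, two-sided). The number of arrays limits the precision, with a median 95% interval of 0.30 to either side.

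Symbols came from the platform annotation for 13146 probes, and 30648 had none. Through RefSeq synonyms (Sscrofa11.1), 218 older symbols were updated. No probe sequence or coordinate is given. A gene was read by its brightest tested probe. Of 9 listed genes with several tested probes, 5 had probes of both signs (APOE, COL4A1, DAB2, NR1H3 and PDGFA). The genes and lists were chosen with earlier results of these data known. Named are all probes of the 5 genes, the 4 genes of smallest p per pathway list, the 2 nearest genes and the 2 markers of a cell type above background in most channels, with ties settled by mean intensity. APOA2, COL4A1, FGF4, FGFR1, FGFR2, SOX2, KLF4 and the markers above background in no channel were named after their values were seen.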

Additional observations from a re-analysis of the deposited data

Results flagged for a closer look

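In 18 groups of 4 values (ratios, high NEFA levels and control levels of the 6 probes), 2 had a value far from the other 3. Chance flags about 1 in 20 such groups. The FOXA2 level in the high NEFA pool of replicate 1 was 7.69 in normalised log2 intensity, below 8.02 to 8.09 in the other high NEFA pools. That spot stood 1.03 times over its background limit. The APOA1 level in the high NEFA pool of replicate 2 was 10.87, above 10.03 to 10.12 in the other high NEFA pools. The control pool on the same array, at 11.25, was the highest of the control pools.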

How the results depend on the processing

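None of the 6 probes passed the adjusted threshold in any setting run, and the lowest adjusted p was 0.245. GATA6 (0.08 to 0.23), FOXA2 (-0.29 to -0.10) and APOA1 (-0.44 to -0.33) kept their direction in all 14 settings with every array, and also with 1 array left out (0.09 to 0.35, -0.37 to -0.13 and -0.55 to -0.14). Changes of filter, dye term or variance moderation, and probe averaging for these 1-probe genes, could not move these ratios. Such settings were no check of direction. The end of each range nearest 0 for GATA6 and FOXA2 came from mean pixel intensity. With it PDGFRA turned to -0.023 and the APOE probe EMPV1_35734 to 0.036. The mean of both APOE probes was -0.0087. The cause was not tested. With 1 array left out, PDGFRA ran from -0.055 to 0.066, EMPV1_43584 from -0.17 to 0.20, EMPV1_35734 from -0.11 to 0.045, and the primitive endoderm median from -0.082 to 0.098. Over all probes, the adjusted threshold took 7 with plain subtraction, 4 with an offset of 16, 3 in the authors' matrix, 5 with no filter and 21 to 78 with 1 array left out, the last from fits with 1 array alone in its dye orientation, which is assumed to vary like the others. The unadjusted count was 3161 of 43794 with no filter, 755 of 13842 with probes above background in all 8 channels, 201 without the dye term, which leaves the dye effect in the residual, and 1212 to 2378 with 1 array left out. The 3 SD limit and the FOXA2 gap were added after seeing the data. All ratios were paired within arrays, and no fit without this pairing was run. FOXA2, PDGFRA and EMPV1_35734 lay within 1.6 times of their background limit, which limits what their ratios can show.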

Other observations

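Other lineage markers on the same arrays were also not past the adjusted threshold. Of 8 tested trophectoderm genes, 6 were higher and 2 lower in high NEFA, with a median of 0.08. Among them GATA3, a trophectoderm factor, was higher on all 4 arrays (0.32, 0.08, 0.50 and 0.33), with a fitted ratio of 0.31 ± 0.13 (SE, adjusted p 0.766 in limma). Of 7 tested oocyte genes, 2 were higher and 5 lower in high NEFA, with a median of -0.20. GDF9, a growth factor of the oocyte, was lower on all 4 arrays (-0.62, -0.17, -0.23 and -0.31), at -0.33 ± 0.13 (SE, adjusted p 0.766). ZAR1, a maternal RNA-binding factor, was higher on all 4 arrays (0.090, 0.52, 0.17 and 0.42), at 0.30 ± 0.13 (SE, adjusted p 0.766). It was above background in 5 of 8 channels. The 2 brightest oocyte genes above background in all 8 channels were MOS and the zona pellucida gene ZP2. MOS had array ratios of -1.44, -0.13, 1.02 and -0.23, at -0.20 ± 0.24 (SE), and ZP2 had 0.093 ± 0.13 (SE). A single direction on all 4 arrays was found for 7.84% of tested probes. GATA3, GDF9 and ZAR1 were picked with their values in view.

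The collagen IV chain COL4A1, which the primitive endoderm deposits in its basement membrane, had 2 tested probes above background in all 8 channels. The brighter had 0.08 ± 0.16 and the other -0.35 ± 0.13 (SE). As for APOE, the fitted ratios of the 2 probes had opposite signs. Both APOE ratios and that of the brighter COL4A1 probe lay within 1 SE of 0.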
